A study of Mus musculus with 6 samples.

Results

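The 6 microRNAs (miRNAs) miR-346-5p, miR-1247-5p, miR-92b-3p, miR-330-3p, miR-1291 and miR-3535 were followed in the renal cortex of mice on a diet with tofogliflozin and of mice on the same diet alone. They were chosen by name, from 1900 mature miRNA names in the count tables, because their mean was higher with tofogliflozin in earlier results from these same libraries. Their fold changes are therefore a description of these 6 libraries and are given with no test. All 6 names were found, each in a single row of the tables, and all 6 passed the filter on low counts.

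The libraries came from 6 C57BL/6 mice. In 3 of them the HF/HC/HS/BA diet, rich in fat and cholesterol and holding bile salt, was fed with tofogliflozin for 8 weeks. The other 3 ate that diet without the drug for 8 weeks. No group on normal chow was analysed here, so all libraries share the diet, and the sources used here give neither the age nor the sex of the mice. Tofogliflozin inhibits SGLT2, the cotransporter by which proximal tubule cells take glucose back from the filtrate. The series asks whether the drug lessens fat deposition and inflammation in the kidney of mice with steatohepatitis. Each library is from a separate mouse, and its tissue is a mixture of cells, so that fewer cells of a type and less RNA per cell cannot be told apart.

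A miRNA is cut from a hairpin precursor and guides repression of messenger RNAs that pair with its seed, bases 2 to 8 from the 5′ end. Most hairpins give a more abundant and a rarer arm, named 5p and 3p. A few entries in the miRNA catalogue lie within small nucleolar RNAs (snoRNAs), which guide chemical modification of ribosomal and other RNAs, and short RNAs cut from a snoRNA can enter the miRNA pathway. In kidney, abundant tubular miRNAs such as miR-192 and miR-204 are well studied.

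The mature sequences are shown first because they separate the 6 by origin and by target seed. They are from RefSeq (build GRCm38.p6, the build called mm10 in the submitters' processing notes), where all 6 matched. The seed is in capitals, and mmu, for mouse, is left out of the names hereafter.
mmu-miR-346-5p: uGUCUGCCcgagugccugccucu
mmu-miR-1247-5p: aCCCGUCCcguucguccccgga
mmu-miR-92b-3p: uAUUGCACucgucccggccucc
mmu-miR-330-3p: gCAAAGCAcagggccugcagaga
mmu-miR-1291: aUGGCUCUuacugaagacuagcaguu
mmu-miR-3535: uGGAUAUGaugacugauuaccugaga

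No seed was shared between any of these 6. The first 4 are 22 or 23 bases long and rich in G and C, from 60.9% in miR-330-3p to 72.7% in miR-1247-5p. Both miR-1291 and miR-3535 are 26 bases long, with 42.3% and 38.5% G and C. These lengths and base contents split the 6 in the same way as their genes do.

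The miR-346 hairpin lies on the plus strand of chromosome 14 at 34894609 to 34894706, in an intron of Grid1, a gene for a glutamate receptor subunit of neurons. The miR-1247 hairpin, on the minus strand of chromosome 12 from 110278048 to 110278129, is in an exon of Dio3os, the noncoding RNA beside the imprinted gene Dio3. On chromosome 3 the miR-92b hairpin spans 89227116 to 89227198 on the minus strand and overlaps no other gene in GENCODE M21. On the plus strand of chromosome 7, the miR-330 hairpin (19181465 to 19181562) lies within Eml2, a gene for a microtubule-binding protein, where it overlaps an exon of a noncoding transcript. Among miRNAs named in the count tables and placed by RefSeq, no other hairpin lay within 10 kb of any of the 6.

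The other pair are parts of snoRNA genes. The miR-1291 hairpin (chromosome 15, 98519762 to 98519878, minus strand) overlaps Snora34 in an intron of Kansl2, a gene for a subunit of a histone acetyltransferase complex. The hairpin of miR-3535 (chromosome 1, 86351981 to 86352127, minus strand) holds the snoRNA gene Gm24148 within Ncl, the gene of nucleolin, and overlaps an exon of a retained-intron transcript of Ncl. Each mature sequence starts at the first base of its snoRNA gene, with 0 bases between them. The 2 snoRNA genes are shown from GENCODE M21 with the mature miRNA in capitals.
Gm24148: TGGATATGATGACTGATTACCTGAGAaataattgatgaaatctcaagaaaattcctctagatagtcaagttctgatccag
Snora34: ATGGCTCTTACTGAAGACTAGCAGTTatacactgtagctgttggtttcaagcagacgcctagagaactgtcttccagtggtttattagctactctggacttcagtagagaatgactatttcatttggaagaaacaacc

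The letters of Gm24148 (80 bases) include those of the boxes of C/D snoRNAs. ATGATGA, the letters of box C, starts at base 6, inside the miR-3535 sequence, and CTGA, those of box D, starts at base 72. In Snora34 (138 bases) the trinucleotide ACA of H/ACA snoRNAs starts at base 133, far from the miR-1291 sequence at the other end. Searched on the gene's own strand, ATGATGA or GTGATGA stood in the first 12 bases of 3.52% of 1507 annotated snoRNA genes, CTGA in the last 9 bases of 24.7% and ACA in the last 6 bases of 45.8%. Among the 1603 mature names of the tables with a RefSeq sequence, 8 (0.499%) hold AUGAUGA or GUGAUGA, miR-3535 among them.

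The libraries held 6643638 to 17241972 counts with tofogliflozin and 14276384 to 22886200 counts on the diet alone, after the largest row of each name was kept. The fewest were in tofogliflozin replicate 2. Levels are given in CPM, the counts of a miRNA relative to its library's size after scaling with TMM factors. Tofogliflozin replicate 2 stood apart at -13.8 on principal component 1 (52.0% of the variance of log2 CPM), where the other libraries lay between -0.14 and 6.17. Kidney cortex markers were present in every library (5 of 5), with a summed level of 147541 to 171556 CPM with tofogliflozin and 159898 to 170207 CPM on the diet alone. Tofogliflozin replicate 2 also had the highest summed level of the markers of 4 other cell types, though not of every single marker. Among leukocyte markers, miR-155-5p (88.6 CPM) and miR-142-3p (11.9 CPM) were highest there. In contrast, miR-150-5p (46.8 CPM) and miR-142-5p (9.69 CPM) were lowest there of all libraries. The neuroendocrine marker miR-129-5p, at 52.2 CPM in that library, was below its level in every diet-only library. Erythroid markers (4 of 4 present in every library) summed to 84.3 to 224 CPM with tofogliflozin and 46.7 to 165 CPM on the diet alone, and leukocyte markers (5 of 5) to 113 to 161 CPM with tofogliflozin and 122 to 149 CPM on the diet alone. Neuroendocrine markers (4 of 5, with miR-124-3p at 0 throughout) summed to 1793 to 3889 CPM with tofogliflozin and 2586 to 2812 CPM on the diet alone. The hepatocyte marker miR-122-5p was at 45.8 to 245 CPM with tofogliflozin and 40.7 to 78.6 CPM on the diet alone. Endothelial markers (2 of 2) were lowest in tofogliflozin replicate 2, at 15285 CPM, in a range of 15285 to 20925 CPM with tofogliflozin and 18258 to 22210 CPM on the diet alone. Striated muscle markers (3 of 3) were also lowest there, at 92.2 CPM, in a range of 92.2 to 120 CPM with tofogliflozin and 97.0 to 126 CPM on the diet alone. The log2 fold changes of the 6, their partner arms and their seed relatives are therefore also given without this library.

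The name "low-abundance" holds for part of the group. Together the 6 took 0.0130% to 0.0330% of the counts of a library with tofogliflozin and 0.00827% to 0.0110% on the diet alone. The median level of the 460 tested miRNAs was 12.6 CPM over all libraries, and 4 of the 6 had a mean below it. By mean level miR-92b-3p ranked 153 and miR-3535 ranked 156, ahead of miR-1247-5p (233), miR-346-5p (241), miR-330-3p (259) and miR-1291 (328).

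**Figure D1:**
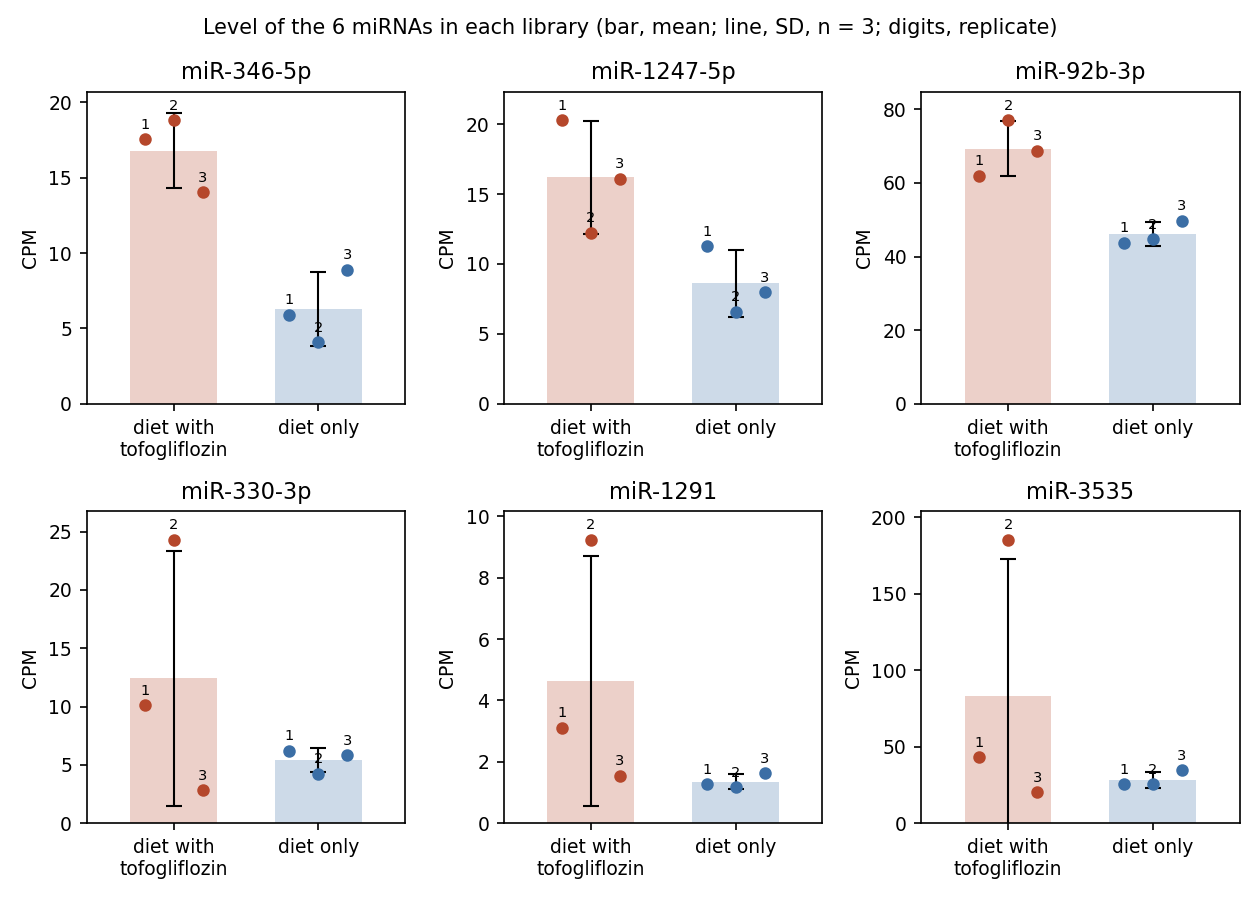
Level of each of the 6 miRNAs in CPM, with the diet with tofogliflozin left of the diet only; points are libraries with their replicate number, bars are means and lines are SD (n = 3), the lower SD line of miR-3535 being cut at 0. For miR-346-5p, miR-1247-5p and miR-92b-3p every tofogliflozin point lies above every diet-only point, while for miR-330-3p, miR-1291 and miR-3535 replicate 2 lies far above all others and replicate 3 among or below the diet-only points.

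miR-346-5p, which has been described in human cells as induced by stress of the endoplasmic reticulum, had raw counts of 237, 126 and 254 in tofogliflozin replicates 1, 2 and 3, against 134, 56 and 137 in diet-only replicates 1, 2 and 3. These are 17.5, 18.8 and 14.0 CPM with tofogliflozin, against 5.90, 4.10 and 8.90 CPM on the diet alone. The groups did not overlap, and the highest tofogliflozin level was that of the smallest library. Its mean level was 16.8 ± 2.46 CPM with tofogliflozin and 6.30 ± 2.43 CPM on the diet alone (SD, n = 3 each). The fitted log2 fold change, tofogliflozin over diet only as throughout, was 1.41 ± 0.30 (SE). Leaving out diet-only replicate 2 gave the lowest value, 1.22, and leaving out diet-only replicate 3 the highest, 1.75, while it was 1.32 without tofogliflozin replicate 2.

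miR-1247-5p, described in human cartilage cells as repressing SOX9, had counts of 274, 82 and 291 in the 3 tofogliflozin libraries, against 256, 90 and 123 in the 3 diet-only libraries. In CPM it stood at 20.3, 12.2 and 16.1 with tofogliflozin, against 11.3, 6.58 and 7.99 on the diet alone. The groups did not overlap, but tofogliflozin replicate 2 and diet-only replicate 1 lay close together. Counting error alone covers that gap, since the 95% exact Poisson interval of the first is 9.73 to 15.2 CPM and that of the second 9.93 to 12.7 CPM. The log2 fold change of miR-1247-5p was 0.91 ± 0.28 (SE). Its lowest value, 0.76, came when tofogliflozin replicate 1 was left out, and its highest, 1.17, when diet-only replicate 1 was. It was 1.07 without tofogliflozin replicate 2.

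miR-92b-3p belongs to a seed family of miRNAs linked to cell proliferation. Its counts were 838, 516 and 1243 in the tofogliflozin libraries, against 993, 612 and 766 in the diet-only libraries. Scaled, these are 62.0, 77.0 and 68.7 CPM with tofogliflozin, against 43.7, 44.8 and 49.8 CPM on the diet alone. The groups did not overlap. Poisson intervals had a lowest bound of 57.8 CPM with tofogliflozin and a highest bound of 53.4 CPM on the diet alone. They cover counting error only, and the SD between mice exceeded that error. It was 2.92 times as large with tofogliflozin and 1.93 times on the diet alone. miR-92b-3p was chosen from this contrast, so the gap is a description only. Its log2 fold change was the smallest of the 6, at 0.59 ± 0.16 (SE), and stayed within 0.51 (without tofogliflozin replicate 2) and 0.71 when any 1 library was left out.

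miR-330-3p, described in human prostate cancer cells as acting on the cell-cycle factor E2F1, had counts of 137, 163 and 51 with tofogliflozin, against 141, 58 and 90 on the diet alone. Its levels were 10.1, 24.3 and 2.82 CPM with tofogliflozin, against 6.21, 4.24 and 5.85 CPM on the diet alone. The groups overlapped fully, with tofogliflozin libraries both highest and lowest of the 6. The log2 fold change of 1.14 ± 0.65 (SE) became 0.23 without tofogliflozin replicate 2 and 1.66 without tofogliflozin replicate 3.

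miR-1291, which in human renal carcinoma cells has been described as acting on the glucose transporter GLUT1, was the rarest, with counts of 42, 62 and 28 in the tofogliflozin libraries, against 29, 16 and 25 in the diet-only libraries. Its levels were 3.11, 9.25 and 1.55 CPM with tofogliflozin, against 1.28, 1.17 and 1.62 CPM on the diet alone. Tofogliflozin replicate 3 lay within the diet-only range, so the groups overlapped. The 95% exact Poisson interval of tofogliflozin replicate 2 was 7.09 to 11.9 CPM, above those of all other libraries, whose highest bound was 4.20 CPM. These intervals cover counting error only. The level in this library helped to choose miR-1291, so the gap is a description only. The log2 fold change was 1.69 ± 0.63 (SE), 0.76 without tofogliflozin replicate 2 and 2.17 without tofogliflozin replicate 3.

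miR-3535, for which no role is given here, had counts of 583, 1243 and 367 with tofogliflozin, against 577, 349 and 532 on the diet alone. Tofogliflozin replicate 2 gave the most reads of it from the smallest library. This made 43.1, 185 and 20.3 CPM with tofogliflozin, against 25.4, 25.5 and 34.6 CPM on the diet alone. Replicate 2 held 74.5% of the summed CPM of the 3 tofogliflozin libraries, and replicate 3 was the lowest of all 6 libraries. The log2 fold change of 1.53 ± 0.70 (SE) became 0.15 without tofogliflozin replicate 2 and 2.03 without tofogliflozin replicate 3. By limma-voom, which weights and averages libraries on a log scale, it was 0.80, and that of miR-330-3p was 0.49.

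The 6 thus fell into 2 patterns. The lowest tofogliflozin level was above the highest diet-only level in 3 of 6, which was so for 23 of all 460 tested miRNAs (5%). The members were chosen from this contrast, so the count describes them and no more. Without tofogliflozin replicate 3 the groups did not overlap in 6 of 6, when 18.1% of all tested miRNAs were in that state, and without diet-only replicate 3 in 4 of 6 (8.68%). The median log2 fold change was 1.28 over the 6 and -0.01 over all 460.

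**Figure D2:**
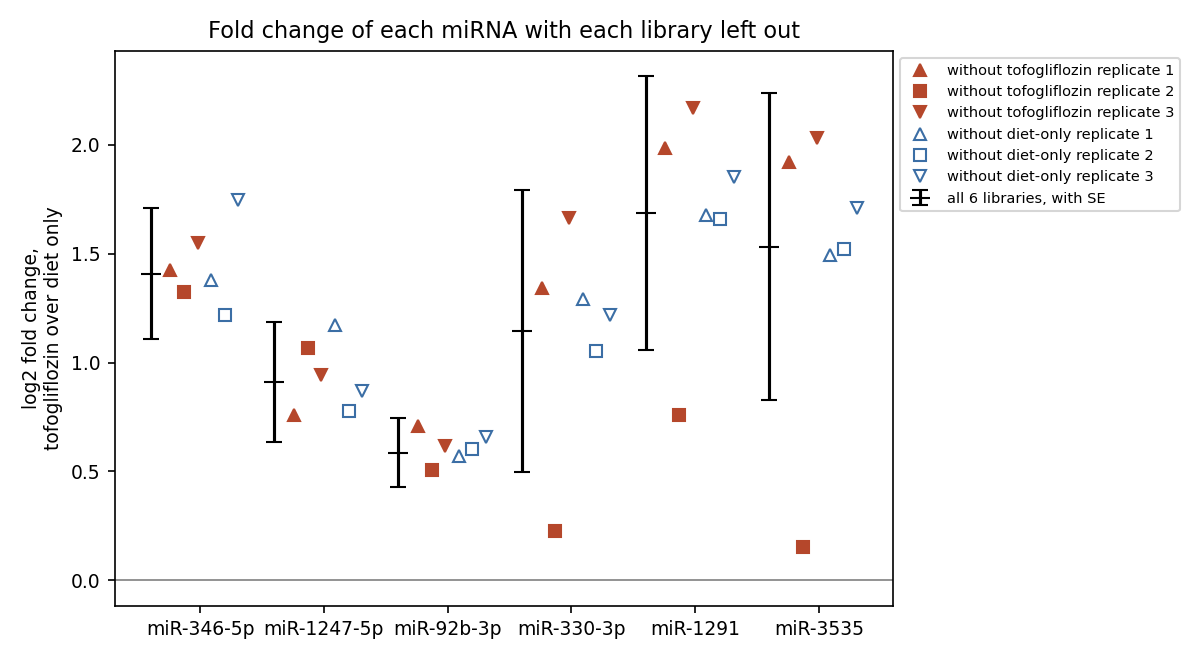
Log2 fold change, tofogliflozin over diet only, of each miRNA; black bars are the values from all 6 libraries with their SE, and symbols are the values with 1 library left out (filled, a tofogliflozin library; open, a diet-only library). The filled squares, without tofogliflozin replicate 2, drop to 0.23 for miR-330-3p, 0.76 for miR-1291 and 0.15 for miR-3535, and stay at 0.51 to 1.32 for the other 3.

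Over the whole table, edgeR's quasi-likelihood test called 0 of 460 miRNAs at an adjusted p of 0.05 (0%), none of the 6 among them, and 23 had an unadjusted p under 0.05. DESeq2 called 2 miRNAs (0.435%), of which 1 was of the 6, miR-346-5p. With limma-voom the count was 0. When no low-count filter was set, the calls by edgeR numbered 10 of 1026 miRNAs (0.975%), 4 of them of the 6, namely miR-346-5p, miR-330-3p, miR-1291 and miR-3535. These calls use the values that chose the members, so nothing is read from them.

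**Figure D3:**
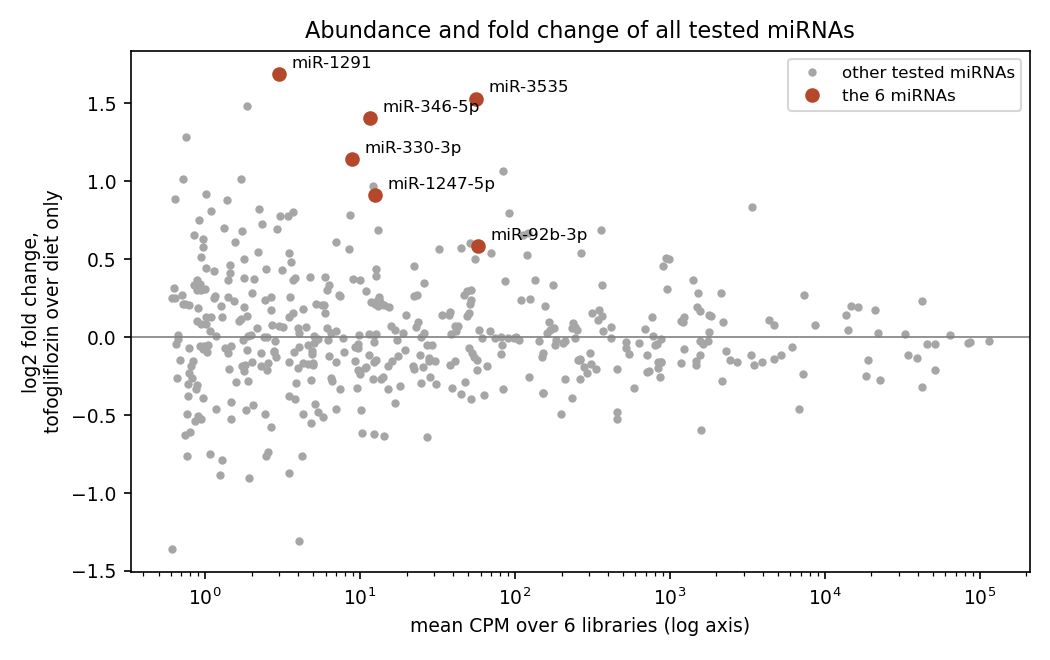
Log2 fold change, tofogliflozin over diet only, against mean CPM over the 6 libraries (log axis) for the 460 tested miRNAs; grey points are other miRNAs and red points the 6. The 6 lie between 0.59 and 1.69 on the fold change axis, at low to middle levels, around a median of -0.01 for all tested miRNAs.

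Spread within a group differed widely among the 6. A single high tofogliflozin library raises both the mean that chose a member and the spread, so the spread with tofogliflozin is a description too. With tofogliflozin the coefficient of variation (CV) was 14.6% for miR-346-5p, 24.8% for miR-1247-5p and 10.8% for miR-92b-3p, beside a median of 26.5% over all tested miRNAs. It was 88.0% for miR-330-3p, 87.8% for miR-1291 and 108% for miR-3535. Counting error alone would give 9.89%, 16.2% and 3.94% for these. On the diet alone the CV of those 3 was 19.3%, 17.5% and 18.4%, near the median of 14.0%, and for miR-1291 below the 21.2% expected from counting. There miR-346-5p had the largest CV of the 6, at 38.5%.

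Tofogliflozin replicate 2 was set against the mean of the other 5 libraries, with 0.5 CPM added to each. This ratio was 6.14 for miR-3535, 4.34 for miR-1291 and 3.91 for miR-330-3p. For miR-346-5p it was 1.82, for miR-92b-3p 1.43 and for miR-1247-5p 0.984. The values of this library helped to choose the members, so their ratios are not set against those of other miRNAs. Low depth and higher marker sums of some other cell types came together with high levels of the first 3 in this library alone. Tofogliflozin replicate 1, next highest for those 3, was also next highest in the neuroendocrine sum (2879 CPM). In the erythroid, leukocyte and hepatocyte markers a diet-only library stood above it (165, 149 and 78.6 CPM). The part of depth or of other cell types in these levels was not tested. Not every marker within those sums was higher in tofogliflozin replicate 2.

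Other miRNAs within snoRNA genes were compared to see whether they share the pattern of miR-1291 and miR-3535. Of 22 mature names whose hairpin overlaps a snoRNA or small Cajal body RNA gene on the same strand, 13 were tested, and 11 of these are not among the 6. In edgeR's quasi-likelihood test 0 of the 11 passed (0% of all tested miRNAs did), and the smallest adjusted p was 0.854. Of them 7 had a log2 fold change above 0 and 4 below, from -0.39 to 0.48, with a median of 0.07 beside -0.01 for all tested miRNAs. The most abundant were miR-1843a-5p (-0.21 ± 0.13, SE), miR-1839-5p (0.06 ± 0.12), miR-1843b-5p (-0.39 ± 0.24) and miR-1843a-3p (0.07 ± 0.17). In tofogliflozin replicate 2 these 4 were at 0.514 to 0.969 times the mean of the other 5 libraries. Of all 11, 5 were above that mean, by up to 1.87 times for miR-677-5p and 1.85 times for miR-6516-5p, and 3 had their highest level in this library.

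Position within the snoRNA gene was set beside the same ratio on the log2 scale. The mature sequence starts 64 to 127 bases into the snoRNA gene in 10 of the 11, with ratios of -0.96 to 0.89, and 2 bases in for miR-677-5p, with 0.91. miR-6516-5p, the farthest in at 127 bases, had the 0.89. With only miR-677-5p near the start, these 11 cannot show whether the ratio follows position, and this was not tested. The members that start at the first base, miR-3535 (2.62) and miR-1291 (2.12), were chosen for being high with tofogliflozin, so no relation with position is read from them. miR-677-5p was at 1.77, 2.83 and 0.498 CPM with tofogliflozin, against 0.396, 1.39 and 2.34 CPM on the diet alone, and its groups overlapped (log2 fold change 0.24 ± 0.77, SE, and -0.28 without tofogliflozin replicate 2). The untested miR-5121, which starts 2 bases into Snord33, had counts of 0, 5 and 1 with tofogliflozin, against 1, 1 and 1 on the diet alone.

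**Figure D4:**
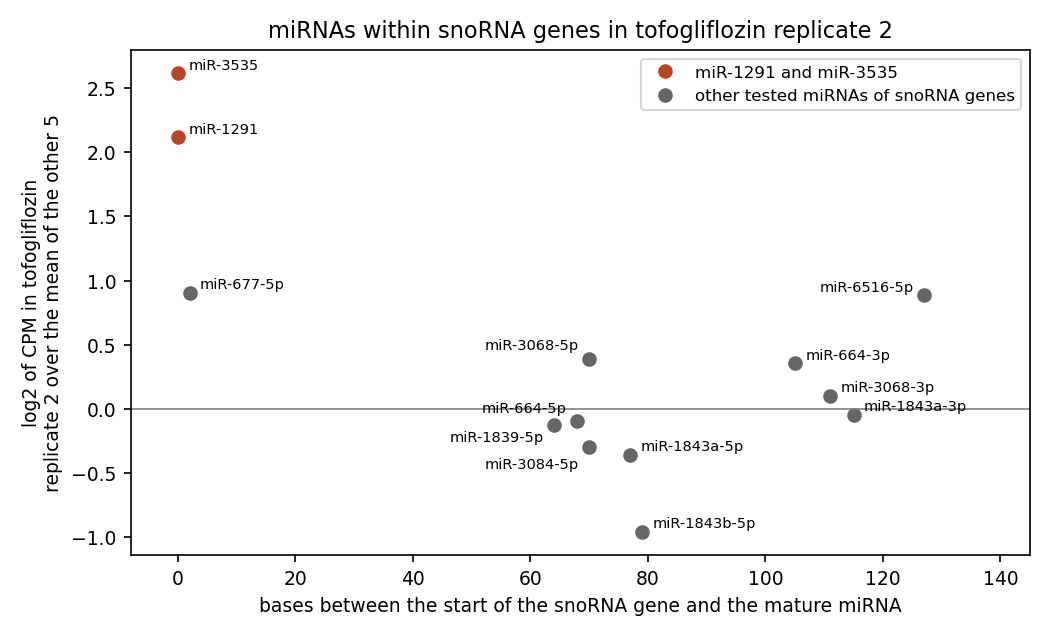
Log2 of the level in tofogliflozin replicate 2 over the mean of the other 5 libraries (0.5 CPM added to each), against the number of bases between the first base of the snoRNA gene and that of the mature miRNA, for the 13 tested miRNAs within snoRNA genes. The red points of miR-3535 (2.62) and miR-1291 (2.12) lie at 0 bases, and the 2 highest grey points lie at 2 bases (0.91) and at 127 bases (0.89).

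The partner arms of the hairpins were not used in choosing the 6. In the tables miR-1291 and miR-3535 have none. For miR-346 the 3p arm had 1 count in diet-only replicate 1 and 0 in the other libraries, so its level could not be compared at this depth. The other 3 partner arms were tested, and 0 passed in edgeR's quasi-likelihood test (0% of all tested miRNAs did).

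miR-330-5p, the abundant arm of its hairpin, was at 69.1, 65.3 and 89.5 CPM with tofogliflozin, against 83.9, 69.1 and 71.9 CPM on the diet alone. The groups overlapped and the means were nearly equal (log2 fold change -0.01 ± 0.18, SE, with adjusted p = 0.996 by edgeR). The sign of this fold change turned under some of the other scalings. It also turned without tofogliflozin replicate 1 (0.09), tofogliflozin replicate 2 (0.08) or diet-only replicate 1 (0.10). Raw reads of miR-330-3p made up 14.7%, 37.2% and 3.15% of those of miR-330-5p in tofogliflozin replicates 1, 2 and 3, against 7.39%, 6.14% and 8.14% in diet-only replicates 1, 2 and 3. The arms of this hairpin therefore did not keep one ratio over the tofogliflozin libraries. Reads of the 3p arm in tofogliflozin replicate 2 were more than in any other library, while those of the 5p arm, at 438, were the fewest.

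miR-92b-5p, the rarer arm, was at 3.48, 7.31 and 1.94 CPM with tofogliflozin, against 3.52, 1.61 and 3.12 CPM on the diet alone. Its groups overlapped, and the log2 fold change of 0.54 ± 0.51 (SE; adjusted p = 0.877 by edgeR) became -0.055 without tofogliflozin replicate 2. miR-1247-3p was at 1.26, 1.04 and 2.54 CPM with tofogliflozin, against 0.748, 1.76 and 1.36 CPM on the diet alone. This arm had only 7 to 46 counts a library, its groups overlapped, and its log2 fold change of 0.41 ± 0.49 (SE; adjusted p = 0.877 by edgeR) became -0.094 without tofogliflozin replicate 3 and 0.61 without tofogliflozin replicate 2.

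Relatives that share a seed were compared next, since they can pair with the same target sites. miR-346-5p, miR-1247-5p, miR-1291 and miR-3535 had none with a RefSeq sequence in the tables, and for miR-330-3p there was miR-6240, with 0 counts in every library, which allows up to 0.174 to 0.452 CPM with tofogliflozin and 0.131 to 0.210 CPM on the diet alone (3 counts of a library; counting error only). For miR-92b-3p there were 5, shown to let the shared seed and the differing rest be seen.
miR-92b-3p: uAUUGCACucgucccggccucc
miR-92a-3p: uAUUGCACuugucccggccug
miR-25-3p: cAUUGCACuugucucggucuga
miR-32-5p: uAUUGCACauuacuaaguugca
miR-363-3p: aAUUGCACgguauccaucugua
miR-367-3p: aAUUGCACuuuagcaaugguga

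miR-367-3p, a miRNA of embryonic stem cells, had 0 counts in every library. Of the 4 relatives tested, 0 passed in edgeR's quasi-likelihood test (0% of all tested miRNAs did). 2 of them had a log2 fold change above 0 and 2 below. miR-92a-3p, from the miR-17-92 and miR-106a-363 clusters, was at 2396, 2554 and 2140 CPM with tofogliflozin, against 1858, 2052 and 1922 CPM on the diet alone. Its groups did not overlap (either direction, 12% of all tested miRNAs), with a log2 fold change of 0.28 ± 0.11 (SE; adjusted p = 0.854 by edgeR), and of 0.22 without tofogliflozin replicate 2. miR-363-3p, also of the miR-106a-363 cluster, was at 26.3, 24.3 and 26.3 CPM with tofogliflozin, against 21.0, 18.9 and 16.1 CPM on the diet alone. Here too the groups did not overlap (0.46 ± 0.17, SE; adjusted p = 0.854 by edgeR), and without that library the value was 0.50. The groups of the other 2 relatives did overlap, miR-25-3p of the miR-106b-25 cluster at a log2 fold change of -0.04 ± 0.11 (SE; adjusted p = 0.969 by edgeR) and miR-32-5p at -0.15 ± 0.18 (SE; adjusted p = 0.877 by edgeR). Without tofogliflozin replicate 2 these were -0.0077 and -0.032.

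**Figure D5:**
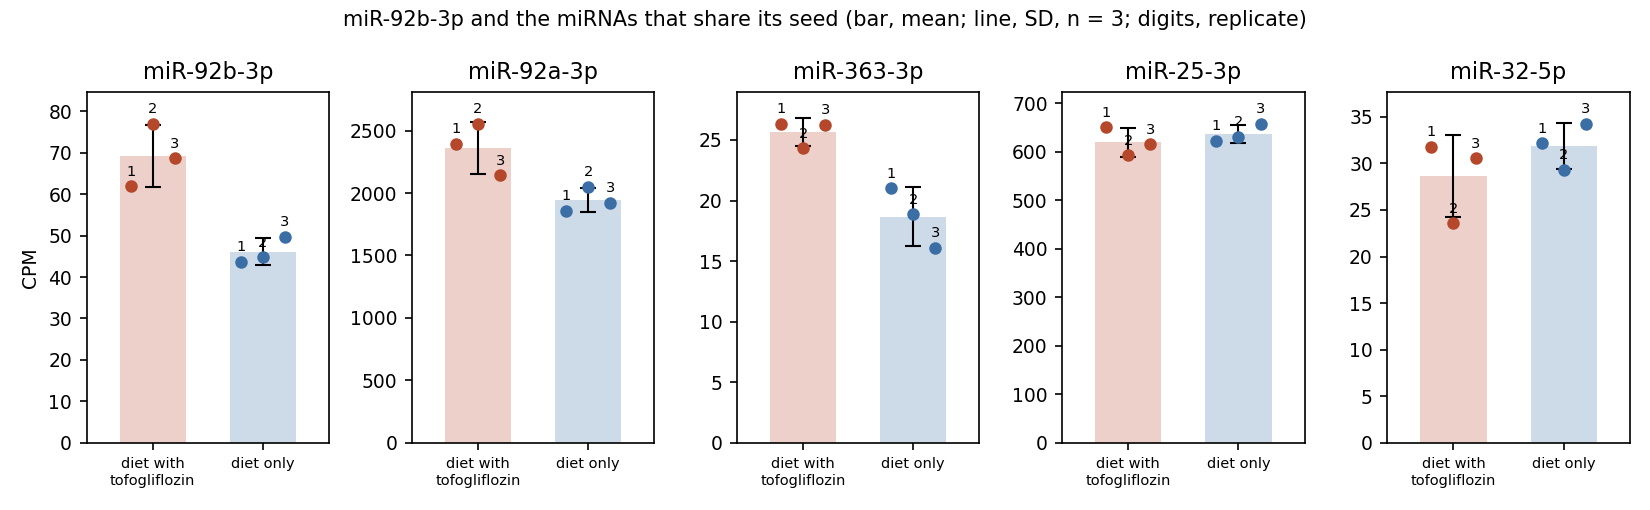
CPM of miR-92b-3p and of the 4 detected miRNAs with its seed, with the diet with tofogliflozin left of the diet only; points are libraries with their replicate number, bars are means and lines are SD (n = 3). The tofogliflozin points lie above the diet-only points for miR-92b-3p, miR-92a-3p and miR-363-3p, and among them or below for miR-25-3p and miR-32-5p.

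Because miR-92b-3p closely resembles the far more abundant miR-92a-3p, its count is uncertain where a read could be assigned to either. Over 21 shared positions, counted from 1 at the 5′ end, the sequences are identical at 19 and differ by C10U and C21G, with the base of miR-92b-3p first. Raw reads of miR-92b-3p were 2.59%, 3.01% and 3.21% of those of miR-92a-3p in the tofogliflozin libraries, against 2.35%, 2.18% and 2.59% in the diet-only libraries. By this ratio tofogliflozin replicate 1 and diet-only replicate 3 lay at the same level, so the groups touched where those of the level alone did not.

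For each of the 6, the most similar of the other tested miRNAs were sought by the root mean square (RMS) difference of log2 CPM, centred on each miRNA's mean over the 6 libraries. Nearest to miR-92b-3p were miR-222-5p (RMS difference 0.12) and miR-212-3p (0.15), and to miR-346-5p the rare miR-8112 (0.48) and miR-7b-5p (0.50). Without diet-only replicate 2 the first 3 of these differences were 0.078, 0.073 and 0.26. Those for miR-1247-5p were miR-370-3p (0.26) and miR-411-5p (0.30, or 0.18 without tofogliflozin replicate 1). Both lie on chromosome 12 in the imprinted Dlk1-Dio3 region at whose end miR-1247 stands, with the mature sequences at 109618305 to 109618326 and 109710190 to 109710210. miR-370-3p was at 4.44, 1.79 and 2.49 CPM with tofogliflozin, against 2.16, 1.61 and 1.56 CPM on the diet alone. The 17 tested miRNAs from Dlk1 to Dio3 other than miR-1247-5p did not share one direction, with 10 above 0 and 7 below (log2 fold change, median 0.22, from -0.79 to 0.73), and 0 passed in edgeR's test (smallest adjusted p = 0.854).

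Nearest to miR-330-3p were miR-362-5p (0.22, or 0.14 without diet-only replicate 2) and miR-222-3p (0.23). miR-222-3p, a miRNA linked to cell proliferation, is abundant, and stood at 3573, 8153 and 1368 CPM with tofogliflozin, against 2356, 2214 and 2780 CPM on the diet alone. Picked for its likeness to miR-330-3p, it has the same order among the tofogliflozin libraries at a high level, with replicate 2 highest and replicate 3 lowest of all 6. For miR-3535 the nearest were miR-671-5p (0.33) and miR-1940 (0.34), and for miR-1291 they were miR-1940 (0.27) and miR-6953-3p (0.41). The difference from miR-1940 was 0.15 for miR-3535 without tofogliflozin replicate 3, and 0.13 for miR-1291 without tofogliflozin replicate 1. Among the 6 themselves, miR-3535 and miR-1291 differed by 0.29, and 0 of all tested miRNAs lay closer to miR-3535. miR-330-3p lay nearest to miR-3535 (0.34), with 2 tested miRNAs closer. By contrast, 204 of the tested miRNAs lay closer to miR-92b-3p than its nearest of the 6, miR-1247-5p (0.42). The members were chosen from these same libraries, so likeness among the 6 is partly set by that choice. These differences and ranks describe the members and no more.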

How the data were processed

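Small RNA libraries of renal cortex from 6 mice were used. Per the labels' protocols, the kits were NucleoSpin miRNA for RNA and NEBNext small RNA for libraries. Cutadapt 1.14 and build mm10 are named in the submitters' processing notes. The aligner, counter and release of miRBase were not given in the sources used here. Per library the authors deposited raw counts per pairing of mature miRNA and precursor (2033 rows). For names with several rows (75) the largest count per library was kept. Reads carry no molecular identifiers in these tables, so intervals cover counting error only.

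Counts were fitted with edgeR 4.0.16 in R 4.3.3 (TMM, quasi-likelihood F-test, filterByExpr keeping counts from 10 and totals from 15, Benjamini-Hochberg adjusted p under 0.05), with the contrast tofogliflozin minus diet only and no covariates. The SE is the absolute log2 fold change over the square root of F. Log2 CPM used a prior count of 2. The fits were also run on simulated counts, with the same dispersion for every miRNA and no outlying library. Those settings differ from these data, so nothing is read from that run. Alternatives used DESeq2 1.42.0, limma-voom (limma 3.58.1), other scalings, filters and row merging, the replicate number as a block and each library left out. Named miRNAs are the 6, their partner arms, seed relatives, neighbours and snoRNA-gene miRNAs, and the 2 nearest by RMS difference. Marker names miR-486a and miR-142a were matched to miR-486 and miR-142. The members and lists were chosen with earlier results of these data known. miR-5121 and the Dlk1-Dio3 region were added after their values were seen.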

Additional observations from a re-analysis of the deposited data

How the results depend on the processing

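The count of called miRNAs was 0 under every alternative run except no low-count filter (10) and DESeq2 (2), and 0 to 0 with a library left out. The number of the 6 whose groups do not overlap was 3 under other scalings and row merging, and 3 to 6 with a library left out. With a library left out the log2 fold change ran from 1.22 to 1.75 for miR-346-5p, 0.76 to 1.17 for miR-1247-5p, 0.51 to 0.71 for miR-92b-3p, 0.23 to 1.66 for miR-330-3p, 0.76 to 2.17 for miR-1291 and 0.15 to 2.03 for miR-3535, the lowest of the last 3 all without tofogliflozin replicate 2. A filter of 10 CPM in 3 libraries left miR-330-3p and miR-1291 untested. Of 282 values of the 18 related miRNAs under alternatives, 12 reversed, in 5 miRNAs, and 0 passed the threshold. miR-330-5p turned to 0.0090 with RLE factors, 0.036 with total counts alone, 0.029 with differing rows summed and 0.010 with DESeq2, and lay between -0.13 and 0.10 with each library left out. miR-1247-3p ran from -0.094 to 0.70, miR-92b-5p from -0.055 to 0.94, miR-664-3p from -0.42 to 0.025 and miR-677-5p from -0.28 to 0.91. The cause was not tested. With differing rows summed, an alternative chosen after the data were seen, miR-92b-3p was on average 2.47% of miR-92a-3p with tofogliflozin and 1.98% on the diet alone. Equal replicate numbers showed no shared deviation (r of 0.003, -0.14 and -0.17 across miRNAs for numbers 1, 2 and 3), and 0 libraries correlated best with their own number. A fit with the replicate block called 0 miRNAs, and its log2 fold changes were 0.74 for miR-330-3p, 1.39 for miR-1291 and 0.93 for miR-3535. At 16 to 62 counts a library, miR-1291 is the member whose values depth limits most. Of the 12 RMS differences, 7 moved by over 1.5 times when a library was left out, all to smaller values (0.073 to 0.26).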
